A study of Mus musculus with 8 samples.

Results

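The genes described here are 42 genes of DNA replication and S phase, followed through mouse small intestine and small-intestinal adenoma. They were chosen by name from the known machinery of replication, with earlier results of these data known, and were looked up among the 39179 genes of the count table. All 42 were found and all 42 passed the filter on low counts that left 18345 genes for testing. In a single library a member had between 64 and 3516 counts.

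Chromosomal DNA is copied once per cell cycle. In G1 the origin recognition complex, with CDC6 and CDT1, loads the ring-shaped MCM2-7 helicase onto origins. At the start of S phase CDC45 and the GINS complex join it and switch it on. Primase and polymerase alpha then lay down primers, the clamp loader RFC places the sliding clamp PCNA, polymerases delta and epsilon extend the strands, and FEN1 and LIG1 join the pieces of the lagging strand. E2F factors drive transcription of many of these genes as cells leave G1. In the small intestine the dividing cells sit in the crypts, while the enterocytes of the villi no longer divide.

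RNA of whole tissue was sequenced from 8 libraries. The 3 wild-type libraries were small intestine of mice with VilCreER, a Cre recombinase that tamoxifen switches on, driven by the villin promoter of the gut epithelium. The 5 adenoma libraries were benign tumours of the small intestine that arose in aged mice with the same transgene and 1 floxed Apc allele beside a normal one (VilCreER+ APCfl/+). Both groups had been treated with tamoxifen and shared the strain background C57BL6/J, and the ages of the controls are not in the labels. The series compared the adenomas with wild-type tissue. In bulk tissue, fewer cells of a type and less RNA per cell cannot be told apart. The labels do not name the animal behind each library, so a p-value here speaks only of the spread among these libraries, which may in part be technical.

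Totals ran from 18040301 to 28343915 counts, and values are CPM, counts scaled to library size after TMM (trimmed mean of M values) correction. Apc itself, counted over the whole gene and not over the floxed part, stood at 191 to 211 CPM in wild type and 132 to 159 CPM in adenoma. Some libraries stood apart. In adenoma 2 the 9 enterocyte markers summed to 104 CPM, with Alpi at 7.84 CPM and Fabp1 at 2.16 CPM, against sums of 6780 to 13500 CPM in the other adenomas and 23200 to 36800 CPM in wild type. The same library held 246 CPM of the hindgut gene Hoxb13 and 0.47 CPM of Gata4, a gene of the upper small intestine, so its marker genes went against its tissue label. WT 1 and adenoma 5 held 190 and 63.5 CPM of the pancreatic lipase gene Pnlip. By sex-linked genes, the 3 wild-type libraries and adenoma 1 were male and the other 4 adenomas female, so sex and group can hardly be told apart. Results that rest on these libraries are given with and without them.

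Most of the replication genes were not called different between adenoma and wild type. Of the 42 members, 12 were higher in adenoma, 1 was lower and 29 did not pass the test (edgeR quasi-likelihood, adjusted p below 0.05 over all genes). The 12 make 28.6% of the members, and 30.3% of all genes tested were called higher. The single lower member makes 2.38%, against 27.8% of all genes. The share of members called higher was thus near that of all genes, and the share called lower was far below it. Wild-type and adenoma values did not overlap, with adenoma higher, for 9 members (21.4%, against 29.3% of all genes), and no member had all adenomas below all wild-type libraries (27.6% of all genes did). No member reached a 2-fold difference in the fit, which 30.9% of all genes did. The estimates ran from -0.36 to 0.90 on the log2 scale with a median of 0.25, beside a median of 0.04 over all genes, and 32 of 42 were above 0. Each of the 29 members not called had a 95% interval inside a 2-fold difference either way, and 7 of them had one inside 0.5 log2 units either way.

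These directions hold relative to the bulk of genes in a library. With libraries scaled so that 8 pan-epithelial genes had the same sum in each, of which 5 were themselves called higher in adenoma, the median of the members became -0.14 and that of all genes -0.30. Under that scaling 0 members were called higher (9.1% of all genes were), 7 were called lower (28.9% of all genes were) and 16 had estimates above 0. With the sex pattern as a term, chosen after seeing the data, 3 of the 12 (Gins4, Pcna and Rfc3) were still called. Of all genes, 16.8% were then called higher.

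**Figure D1:**
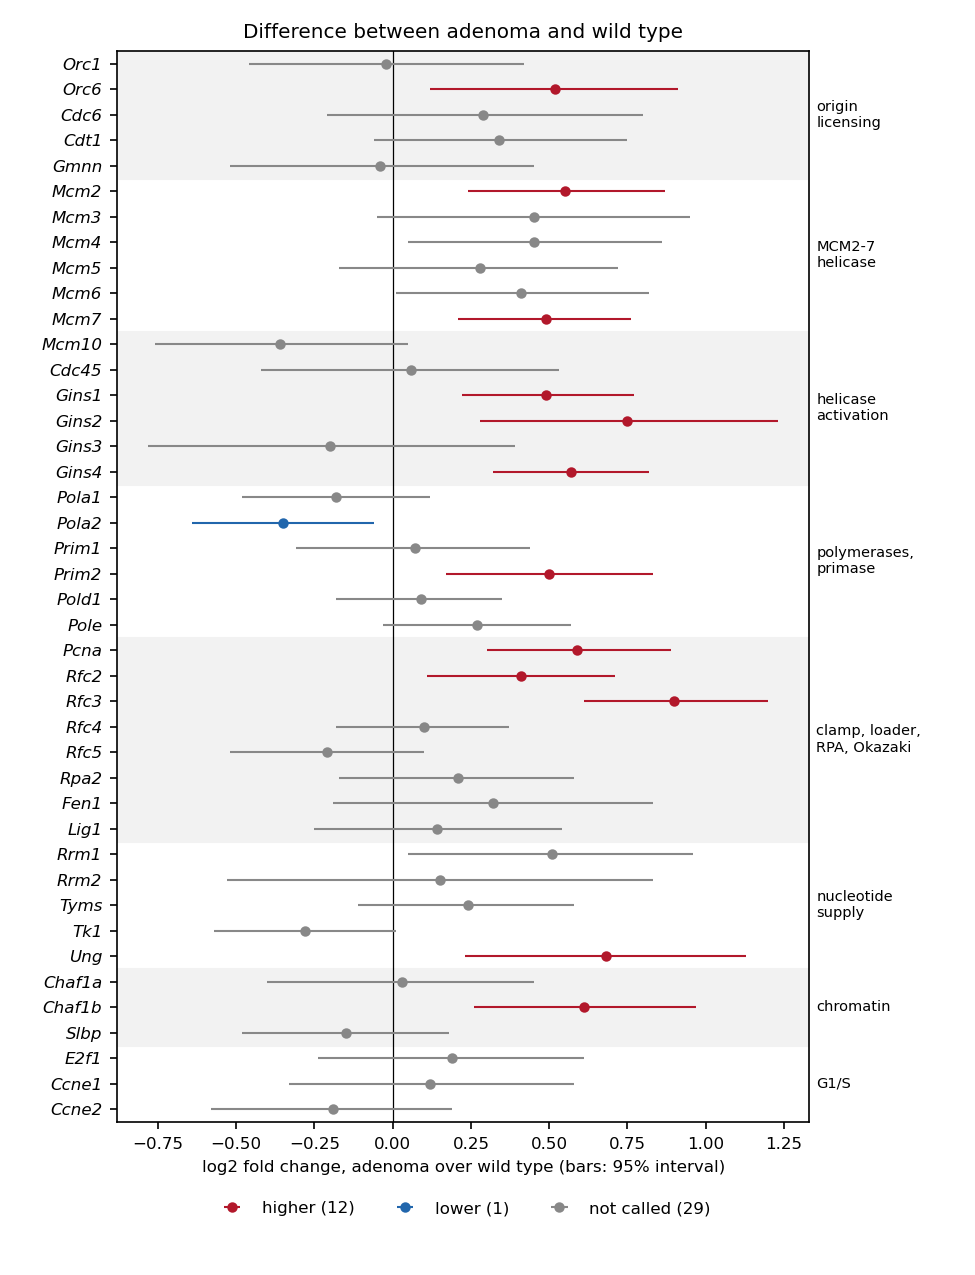
Log2 fold change of each member, adenoma over wild type, as a point with its 95% interval, from the fit to 3 wild-type and 5 adenoma libraries. The genes are arranged by role, with red for the 12 called higher, blue for the 1 called lower and grey for the 29 not called. Rfc3 stands furthest to the right at 0.90, and no point reaches 1 or -1.

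Since many of these genes are known E2F targets, their promoters were read for E2F words. RefSeq (GRCm38.p6) gave a window of 250 bases before to 50 bases after the start site for 33 of the 42 members. The words TTTCCCGC, TTTGGCGC, TTTCGCGC and TTTGCCGC were sought on both strands, and some matches overlap where a word and the reverse complement of another share bases. Where a gene had several windows, the most upstream was read. At least 1 word was found for 11 of 33 members (33.3%) and for 2.94% of 17492 protein-coding genes with a window. With any window counted, it was 12 of 33 (36.4%) and 3.29%. The E2f1 window lay wholly inside the annotated gene, so its lack of a word does not speak of the bases before the gene. The windows of Cdc6 and Mcm7, which held words, also lay wholly inside the gene. Those of Mcm5, Fen1 and Lig1 lay wholly before it. The 11 with a word in the most upstream window were Orc1, Cdc6, Cdt1, Mcm3, Mcm5, Mcm6, Mcm7, Gins3, Pola1, Pold1 and Rfc3. The pentamer CCAAT, bound by NF-Y, was in 57.6% of the members' windows and 39.2% of all, and TTTGAA, the core of the CHR element of G2/M genes, in 12.1% and 16.5%.

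Of the 7 members called higher that had a window, 2 held a word (Mcm7 and Rfc3), and of the 25 not called, 9 did. The stretches from 170 bases before to 25 bases after the start site are shown for both of these and for 2 members that were not called, Mcm6 and Orc1, to set the words side by side. E2F words of either strand are in capitals. The Mcm7 stretch lies inside the annotated gene. Rfc3 lies at chr5:151651184-151651378 (minus strand), Mcm7 at chr5:138171859-138172053 (minus), Mcm6 at chr1:128359681-128359875 (minus) and Orc1 at chr4:108579284-108579478 (plus).
Rfc3: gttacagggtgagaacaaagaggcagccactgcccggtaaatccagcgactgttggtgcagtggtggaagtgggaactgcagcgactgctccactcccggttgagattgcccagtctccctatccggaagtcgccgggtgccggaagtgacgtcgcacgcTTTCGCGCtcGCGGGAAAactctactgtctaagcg
Mcm7: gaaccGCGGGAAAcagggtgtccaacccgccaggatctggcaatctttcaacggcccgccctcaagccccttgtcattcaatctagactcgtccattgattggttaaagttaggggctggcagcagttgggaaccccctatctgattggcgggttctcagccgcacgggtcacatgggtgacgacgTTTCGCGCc
Mcm6: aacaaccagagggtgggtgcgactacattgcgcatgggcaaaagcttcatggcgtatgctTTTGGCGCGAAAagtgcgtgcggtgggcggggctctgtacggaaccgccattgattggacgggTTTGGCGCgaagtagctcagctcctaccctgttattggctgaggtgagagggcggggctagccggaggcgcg
Orc1: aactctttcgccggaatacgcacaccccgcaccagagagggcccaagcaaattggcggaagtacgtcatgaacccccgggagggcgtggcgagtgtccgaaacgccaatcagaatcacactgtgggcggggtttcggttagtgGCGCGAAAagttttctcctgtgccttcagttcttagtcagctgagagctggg
Rfc3 has 2 words that begin at bases -10 and 1 from its start site, at the end of the stretch. Mcm6 has 3, of which the first 2 overlap in 1 capital run. Orc1, at nearly equal levels in both tissues, carries TTTCGCGC as well, on the other strand. A match of letters is a description and does not show that a factor is bound.

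Among the origin licensing genes, 1 of 5 was higher in adenoma and the other 4 did not pass the test. Orc6 encodes the smallest subunit of the origin recognition complex. It stood at 12.7, 18.9 and 16.1 CPM in WT 1 to 3 and at 23.3, 16.7, 25.3, 24.8 and 23.4 CPM in adenomas 1 to 5. All adenomas but adenoma 2 lay above wild type, and the fitted difference was 0.52 ± 0.17 (log2, SE; edgeR adjusted p = 0.0302). The call was the least steady of the 12, lost without WT 1, WT 3, adenoma 1, 3, 4 or 5, with adjusted p from 0.058 to 0.108.

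Cdt1, the loader that brings the MCM ring to the origin, was at 22.8 to 29.5 CPM in wild type. In adenomas 1 to 5 it stood at 38.5, 24.5, 38.3, 40.4 and 30.9 CPM, and it was not called (0.34 ± 0.18, adjusted p = 0.131), but it passed without adenoma 2 (adjusted p = 0.013). Gmnn encodes geminin, which binds CDT1 and blocks loading once S phase has begun. It measured 16.6, 18.7 and 17.6 CPM in wild type and 19.7, 9.77, 19.5, 19.1 and 17.9 CPM in adenoma, with adenoma 2 far below every other library (-0.04 ± 0.21). Orc1, the largest subunit of the origin complex (-0.02 ± 0.20), and Cdc6, its partner in loading (0.29 ± 0.22), overlapped between the tissues.

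The 6 genes of the MCM2-7 helicase all had estimates above 0, from 0.28 to 0.55 with a median of 0.45, and 2 of the 6 passed the test. Mcm2 stood at 44.6, 62.7 and 60.3 CPM in wild type and at 85.0, 67.8, 81.5, 92.2 and 83.4 CPM in adenoma. Every adenoma was above every wild-type library, a difference of 0.55 ± 0.14 (edgeR adjusted p = 0.00848). Mcm7 also kept its groups apart, with 45.6, 63.4 and 58.5 CPM against 78.6, 71.2, 79.1, 87.6 and 74.5 CPM (0.49 ± 0.12, adjusted p = 0.00813).

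The other 4 MCM genes overlapped between the tissues at a single adenoma. Mcm6 was at 81.3, 95.4 and 89.9 CPM in wild type, and at 129, 77.1, 127, 139 and 119 CPM in adenoma. Adenoma 2 lay below all wild-type libraries and the rest lay above them, and the gene was not called (0.41 ± 0.18, adjusted p = 0.0751). Mcm5 measured 51.4, 77.5 and 68.6 CPM against 85.0, 53.6, 88.9, 92.9 and 78.5 CPM, again with adenoma 2 alone inside the wild-type range (0.28 ± 0.20, adjusted p = 0.248). Mcm3 (0.45 ± 0.22) and Mcm4 (0.45 ± 0.18) had the same layout. Without adenoma 2 all 4 were called higher, with edgeR adjusted p of 0.0125 for Mcm3, 0.00486 for Mcm4, 0.0265 for Mcm5 and 0.000506 for Mcm6.

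Of the genes that switch the helicase on, 3 of 6 were higher, all from the GINS complex. GINS is a ring of 4 subunits that holds CDC45 to the MCM helicase. Gins4 went from 15, 16.2 and 12.8 CPM in wild type to 23.7, 20.3, 20.7, 23.0 and 20.9 CPM in adenoma (0.57 ± 0.11, edgeR adjusted p = 0.00231). Gins1 went from 6.06, 7.30 and 6.44 CPM to 9.55, 10, 8.44, 9.12 and 9.31 CPM (0.49 ± 0.12, adjusted p = 0.00789), and here adenoma 2 was the highest adenoma. In both genes the groups lay apart.

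Gins2 had the largest estimate of the role, 0.75 ± 0.21 (edgeR adjusted p = 0.0137). Its values were 5.24, 8.08 and 6.87 CPM in wild type and 11.9, 8.26, 11.6, 14.6 and 10.5 CPM in adenoma, with adenoma 2 just above WT 2, and without WT 1 the adjusted p was 0.0538. Of its exon bases 67.3% overlap Gse1 on the opposite strand, and the library kit does not keep strand, so reads of the pair cannot be told apart. Gse1 moved the other way (-0.94, adjusted p = 0.00645).

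Gins3, the remaining GINS subunit, did not rise with its partners. It stood at 4.12, 6.69 and 5.51 CPM in wild type and 5.17, 3.01, 5.45, 6.10 and 3.99 CPM in adenoma (-0.20 ± 0.26, adjusted p = 0.533). Mcm10, a factor needed for the helicase to start, had the lowest estimate of all 42 members at -0.36 ± 0.18 (adjusted p = 0.115). It was called lower under upper-quartile scaling (edgeR adjusted p = 0.0435), the 5 CPM filter (0.0394) and pan-epithelial scaling (0.00879). Without WT 1, adenoma 5 and adenoma 2 together it was called lower as well (0.012). It measured 35.2, 48.8 and 43.1 CPM in wild type and 36.2, 22.4, 37.6, 35.8 and 33.4 CPM in adenoma, and WT 1 lay among the adenomas. Cdc45, the helicase cofactor, was nearly level (0.06 ± 0.21).

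The polymerase and primase genes held both a higher and a lower member, and these belong to the same complex. Polymerase alpha has the catalytic subunit POLA1, the accessory subunit POLA2 and the primase pair PRIM1 and PRIM2. Prim2 measured 9.32, 12.5 and 13.3 CPM in wild type and 17.0, 13.9, 18.2, 17.6 and 16.1 CPM in adenoma. Its groups lay apart, by 0.50 ± 0.15 (edgeR adjusted p = 0.0168), though without WT 1 the adjusted p was 0.0519. Pola2 measured 25.9, 31.1 and 29.8 CPM in wild type and 22.9, 18.2, 26.4, 24.1 and 21.8 CPM in adenoma.

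Pola2 fell by 0.35 ± 0.13 (adjusted p = 0.0428) and was the only member called lower. Adenoma 3 stood above WT 1, and the call was lost without WT 2, WT 3, adenoma 1, 4 or 5, with adjusted p from 0.0532 to 0.152. Pola1 (-0.18 ± 0.13) and Prim1 (0.07 ± 0.17) did not pass. Neither did the catalytic subunits of the polymerases that extend the strands, Pold1 of polymerase delta (0.09 ± 0.12) and Pole of polymerase epsilon (0.27 ± 0.13).

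Of the 8 genes for the clamp, its loader, single-strand binding and Okazaki fragment joining, 3 were higher. Rfc3, a small subunit of the clamp loader, had the largest difference of all members. It stood at 13.9, 18.6 and 16.5 CPM in wild type and at 32.1, 25.7, 30.2, 34.3 and 30.5 CPM in adenoma, a 1.87-fold difference (0.90 ± 0.13 on the log2 scale, edgeR adjusted p = 0.00058). The lowest adenoma was well above the highest wild-type library. Under pan-epithelial scaling its difference was 0.53 with an adjusted p of 0.0806, the only one of the alternatives run in which it was not called.

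Pcna encodes the sliding clamp itself. It measured 38.6, 44.1 and 39.9 CPM in wild type and 65.0, 47.5, 68.6, 68.4 and 59.1 CPM in adenoma, and the groups lay apart (0.59 ± 0.13, edgeR adjusted p = 0.00458). The pseudogene Pcna-ps2, 99.2% identical over 781 bases, held 104% as many counts as Pcna, so the split of reads between them is uncertain. The pseudogene rose alongside (0.77 ± 0.15, adjusted p = 0.00229). With both summed, an addition made after seeing the data, the level went from 79.5 ± 5.54 CPM (SD, n = 3) to 127 ± 19.1 CPM (SD, n = 5), a difference of 0.68 ± 0.14 with an edgeR adjusted p of 0.00312.

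Rfc2, another loader subunit, measured 30, 36.4 and 34.3 CPM in wild type and 43.1, 35.5, 50, 51.1 and 43.2 CPM in adenoma. Adenoma 2 lay inside the wild-type range, the fitted difference was 0.41 ± 0.13 (edgeR adjusted p = 0.0269), and the call was lost without WT 1, WT 3, adenoma 3 or adenoma 4, with adjusted p from 0.0593 to 0.0946. It shares 15.1% of its exon bases with Lat2 on the opposite strand.

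The other 2 loader subunits did not pass. Rfc5 stood at 26.9, 28 and 27.9 CPM in wild type and 24.8, 18, 28.2, 25.1 and 23.3 CPM in adenoma (-0.21 ± 0.14, adjusted p = 0.219). A pseudogene, Gm12870, held 15.8% as many counts as Rfc5. Rfc4 hardly differed (0.10 ± 0.12). Rpa2, a subunit of the protein that coats single-stranded DNA, Fen1, the flap nuclease, and Lig1, the ligase, had estimates of 0.21 ± 0.17, 0.32 ± 0.22 and 0.14 ± 0.17, and none was called. Of the exon bases of Fen1, 78.8% overlap the antisense gene Gm10143.

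**Figure D2:**
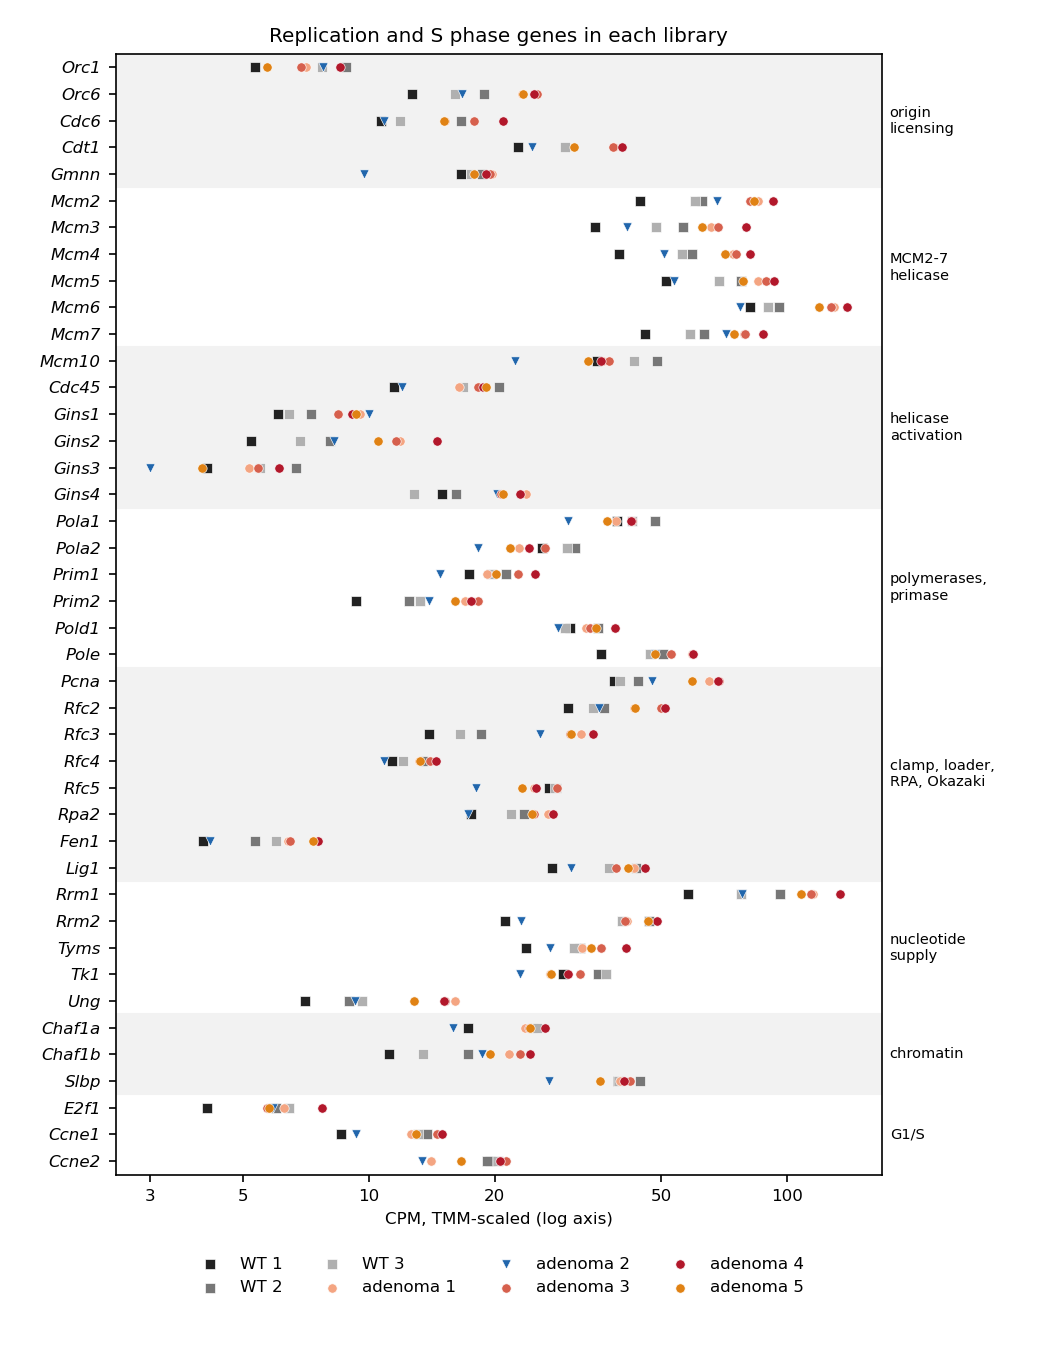
TMM-scaled CPM of each member in each of the 8 libraries, on a log axis, arranged by role. Squares are the 3 wild-type libraries, circles 4 adenomas and blue triangles adenoma 2. WT 1 is the lowest wild-type library for 39 of the 42 genes and adenoma 2 the lowest adenoma for 39.

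Among genes of nucleotide supply and uracil removal, 1 of 5 was higher. Ung encodes the glycosylase that removes uracil from DNA. It stood at 7.03, 8.97 and 9.66 CPM in wild type and at 16.1, 9.30, 15.2, 15.1 and 12.8 CPM in adenoma. Adenoma 2 fell among the wild-type values, and the difference was 0.68 ± 0.20 (edgeR adjusted p = 0.0171), or 0.56 with an adjusted p of 0.0683 without WT 1.

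Rrm1 and Rrm2 encode the subunits of ribonucleotide reductase, which makes the deoxynucleotides. Rrm1 went from 57.9, 96.3 and 77.6 CPM to 115, 78.0, 114, 134 and 108 CPM and just missed the threshold (0.51 ± 0.20, adjusted p = 0.0561), which it passed without adenoma 2 (adjusted p = 0.0095) and without WT 2 (0.029). Rrm2 had the widest spread, 21.2, 46.8 and 40.4 CPM against 41.4, 23.1, 41.0, 48.8 and 46.4 CPM (0.15 ± 0.30). In both tissues a single library, WT 1 or adenoma 2, was far below the others.

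Tk1, the thymidine kinase of the salvage pathway, had the lowest estimate of the role at -0.28 ± 0.13 (adjusted p = 0.088). It measured 29.1, 35.4 and 36.8 CPM in wild type and 27.1, 23.0, 31.9, 29.9 and 27.2 CPM in adenoma, and WT 1 lay among the adenomas. Without WT 1 it was called lower (-0.37, adjusted p = 0.0481). Tyms, which makes thymidylate from new, was not called (0.24 ± 0.15).

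Chromatin assembly factor 1 places histones behind the fork, and its subunits parted. Chaf1b went from 11.2, 17.3 and 13.5 CPM to 21.7, 18.7, 23.0, 24.3 and 19.5 CPM, with the groups apart (0.61 ± 0.16, edgeR adjusted p = 0.00961). Chaf1a was level, at 22.5 ± 4.47 CPM (SD, n = 3) and 22.9 ± 4.05 CPM (SD, n = 5), and 52.5% of its exon bases overlap Ubxn6 on the opposite strand. Slbp, which binds the stem-loop of histone mRNA, stood at 39.4, 44.5 and 39.6 CPM in wild type and at 39.8, 27.0, 42, 40.8 and 35.7 CPM in adenoma (-0.15 ± 0.14, adjusted p = 0.388). Adenomas 2 and 5 lay below the wild-type range and the others inside it.

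None of the 3 regulators of the G1/S step passed the test. E2f1, a transcription factor that activates replication genes, was at 4.12, 6.02 and 6.44 CPM in wild type and 6.29, 5.92, 5.72, 7.74 and 5.79 CPM in adenoma (0.19 ± 0.19, adjusted p = 0.414). Ccne2, a cyclin partner of CDK2, stood at 19.5, 19.2 and 20.4 CPM against 14.1, 13.4, 21.3, 20.6 and 16.6 CPM (-0.19 ± 0.17, adjusted p = 0.343). Adenomas 3 and 4 were above wild type for Ccne2 and adenomas 1, 2 and 5 below. Ccne1, the other E cyclin, was not called (0.12 ± 0.20).

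Of the 12 genes called higher, 7 were called with any 1 library left out: Mcm2, Mcm7, Gins1, Gins4, Pcna, Rfc3 and Chaf1b. The other 5, Orc6, Gins2, Prim2, Rfc2 and Ung, lost the call without at least 1 library, and all 5 lost it without WT 1. Without adenoma 2, all 12 stayed called and 8 more were added, Cdt1, Mcm3, Mcm4, Mcm5, Mcm6, Rpa2, Fen1 and Rrm1, to give 20 of 42, where 34% of all genes were then called higher. Without WT 1 and adenoma 5 together, the libraries with pancreatic RNA, 5 of 42 were called higher (11.9%, against 22.3% of all genes): Mcm7, Gins4, Pcna, Rfc3 and Chaf1b.

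Genes of the same complex thus had unequal differences, and a ratio of 2 genes within a library shows this free of any scaling. The pairs were picked after their values were seen, so the ratios are descriptions without a test. Prim2 counts were 0.360, 0.401 and 0.447 times those of Pola2 in WT 1 to 3, and 0.743, 0.762, 0.689, 0.732 and 0.740 times in adenomas 1 to 5. Rfc3 over Rfc5 was 0.517 to 0.662 in wild type and 1.07 to 1.43 in adenoma. In wild type Rfc5 had the more counts of that pair, and in each adenoma Rfc3 had.

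Gins4 over Gins3 ran from 2.32 to 3.63 in wild type and from 3.77 to 6.75 in adenoma. Chaf1b over Chaf1a ran from 0.534 to 0.700 and from 0.801 to 1.18. Cdt1 over its inhibitor Gmnn ran from 1.37 to 1.67 and from 1.72 to 2.5. In these 5 pairs no adenoma reached into the wild-type range, and adenoma 2, the lowest adenoma for most single genes, had the highest ratio of all 8 libraries in each. In 2 other pairs the groups overlapped: Rrm1 over Rrm2 was 1.92 to 2.73 and 2.33 to 3.37, and Mcm6 over Mcm5 was 1.23 to 1.58 and 1.43 to 1.52.

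**Figure D3:**
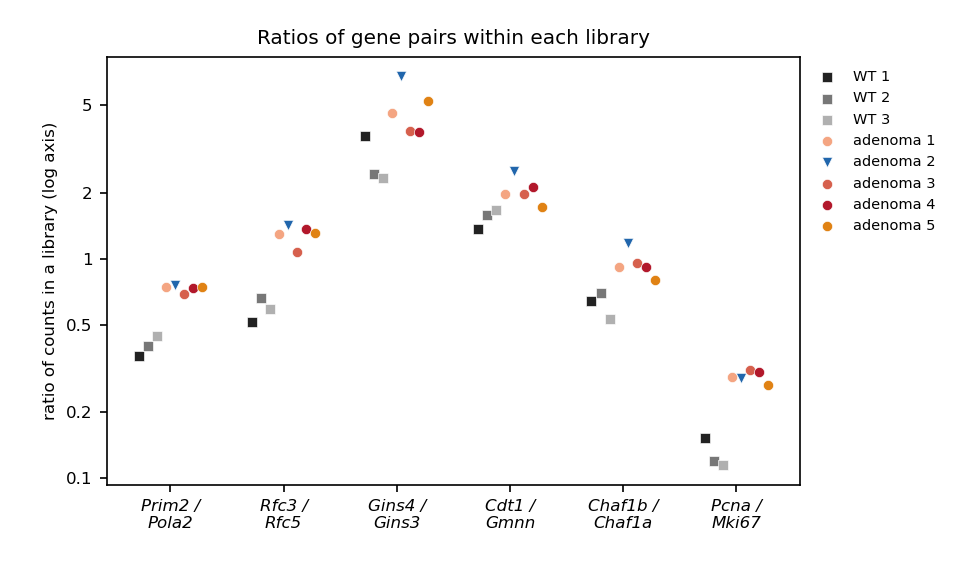
Ratio of the counts of 2 genes within each library, on a log axis, for 6 pairs, with wild type as squares, adenoma as circles and adenoma 2 as a blue triangle. For Prim2 over Pola2 the wild-type libraries lie at 0.360 to 0.447 and the adenomas at 0.689 to 0.762. In none of the 6 pairs do the groups overlap.

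The members rose and fell together from library to library within a tissue. Taking each gene's log2 CPM (prior count 2) minus its wild-type mean, the median over the 42 was -0.27, 0.16 and 0.05 in WT 1 to 3 and 0.31, -0.16, 0.32, 0.51 and 0.24 in adenomas 1 to 5. The same median over all genes stayed between 0 and 0.04. WT 1 was the lowest wild-type library for 39 of 42 members (39.9% of all genes), and adenoma 2 the lowest adenoma for 39 of 42 (36.4% of all genes). Adenoma 4 was the highest adenoma for 27 and WT 2 the highest wild-type library for 35.

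The gap of adenoma 2 to the other adenomas, a median of -0.51 over the members, was thus larger than the median difference between the tissues. Adenoma 2 lay below all wild-type libraries for 15 of 42 members, as it did for 7311 of the 18345 genes tested. It lay above all of them for 9 members and for 7804 of all genes. Without it, the groups were apart with adenoma higher for 21 of 42 members (50%, against 35.1% of all genes), and still apart with adenoma lower for 0 (33.2% of all genes).

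**Figure D4:**
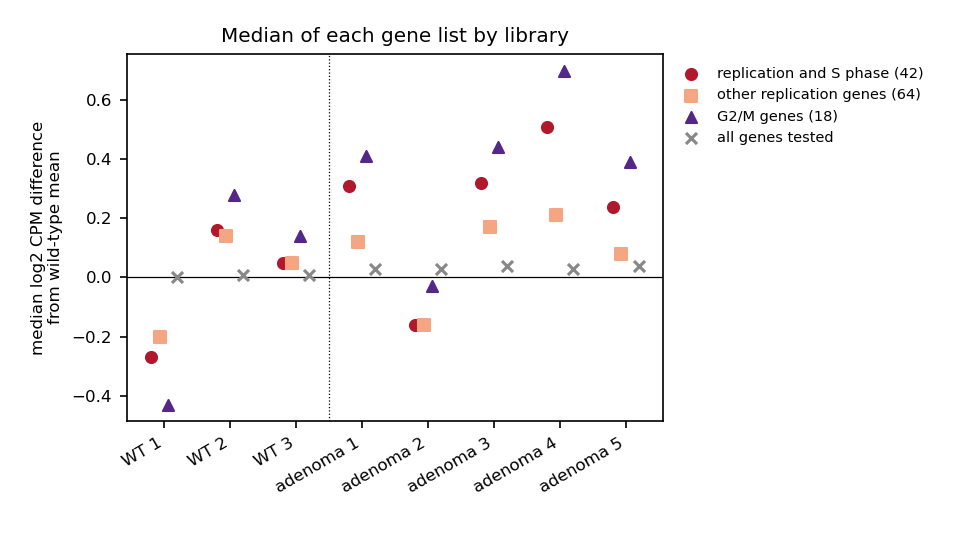
Median over a gene list of log2 CPM minus the wild-type mean, for each of the 8 libraries, with the dotted line between wild type and adenoma. Red circles are the 42 members, squares 64 other replication genes, triangles 18 G2/M genes and crosses all genes tested. WT 1 and adenoma 2 are the lowest of their tissue in all 3 cell cycle lists, while the crosses stay near 0.

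Other measures moved with these libraries. The 8 pan-epithelial markers summed to 5390 CPM in adenoma 2 and 7430 to 9650 CPM in the other adenomas, with Epcam at 1030 CPM against 1480 to 1840 CPM. In WT 1 the pan-epithelial sum was 6620 CPM, the highest of the wild-type libraries (5830 to 6620 CPM), while its enterocyte sum of 36800 CPM was also the highest. Between the tissues, the 6 crypt stem markers summed to 481 to 520 CPM in wild type and 812 to 1050 CPM in adenoma, where 5 of the 6 were called higher. Lgr5, the stem cell receptor, went from 10.7 to 12.6 CPM to 27.8 to 77.5 CPM, while Olfm4 went from 285 to 347 CPM to 0.376 to 151 CPM.

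The 6 fibroblast markers summed to 1080 to 1450 CPM in wild type and 2670 to 3370 CPM in adenoma. The 5 endothelial markers gave 137 to 148 CPM and 231 to 285 CPM, and the 6 T cell markers 42 to 52.4 CPM and 9.67 to 17.3 CPM. No marker of these lists was at 0 in any library. Markers of several cell types thus moved with the tissue, and their part in the values of the replication genes was not tested.

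A wider list of 64 further replication genes was read beside the members. In it 16 were higher (25%), 15 lower (23.4%) and 33 not called, with a median of 0.07. Over all genes tested 30.3% were higher and 27.8% lower, so neither share stood above that background. Of those called higher, the 4 with the smallest adjusted p were Rnaseh2a, Rbbp4, Rpa1 and Rfc1. Rnaseh2a, the catalytic subunit of RNase H2, which removes ribonucleotides from DNA, stood at 12.4 to 14.3 CPM in wild type and 23.7 to 29.4 CPM in adenoma (0.97 ± 0.11, edgeR adjusted p = 0.000157). Rbbp4, the third subunit of chromatin assembly factor 1, went from 88.9 to 93.1 CPM to 128 to 141 CPM (0.58 ± 0.08, adjusted p = 0.000345). Rpa1, the large partner of RPA2 in the single-strand binding complex (0.50 ± 0.09), and Rfc1, the large subunit of the clamp loader (0.40 ± 0.08), rose as well.

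The 4 lower genes of that list with the smallest adjusted p were Samhd1, Rb1, E2f8 and Mcm9. Samhd1, the hydrolase that breaks down deoxynucleotides, stood at 123 to 139 CPM in wild type and 41.8 to 49.6 CPM in adenoma, falling by 1.55 ± 0.08 (edgeR adjusted p = 7.57e-06). Rb1, the retinoblastoma protein gene that holds E2F factors in check, fell by 1.33 ± 0.11, from 89.7 to 111 CPM down to 34.3 to 46.8 CPM (adjusted p = 4.08e-05). E2f8, a repressor of the E2F family, fell by 1.24 ± 0.20, and Mcm9, a helicase outside the MCM2-7 ring, by 0.53 ± 0.09. The 3 largest of these differences exceed any among the 42 members.

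**Figure D5:**
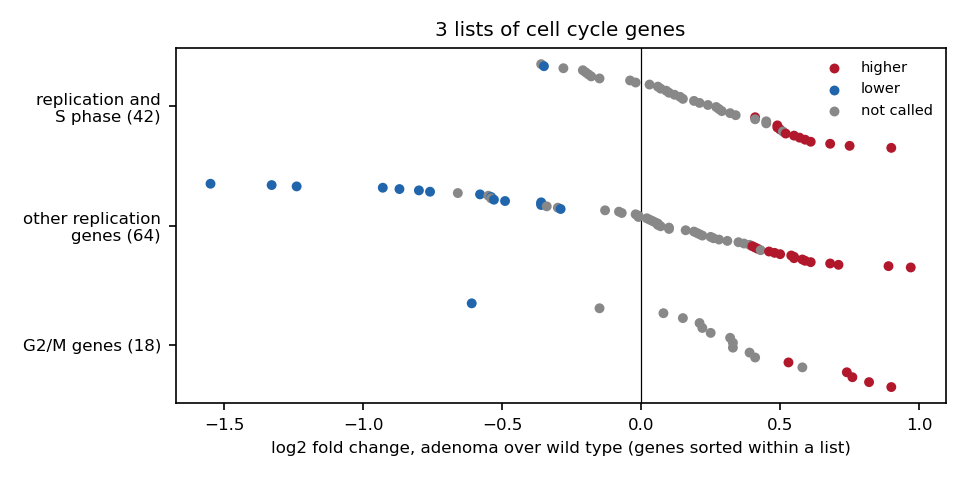
Log2 fold change, adenoma over wild type, of each gene in 3 lists, sorted within a list, with red for genes called higher, blue for lower and grey for not called. The 42 members run from -0.36 to 0.90, the 64 other replication genes from -1.55 to 0.97 and the 18 G2/M genes from -0.61 to 0.90.

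Genes of the later cell cycle followed the same library pattern. Of 18 G2/M genes 5 were higher (27.8%, against 30.3% of all genes), 1 was lower (5.56%, against 27.8%) and the median was 0.33. WT 1 and adenoma 2 were the lowest of their tissue for all 18. Tpx2, a spindle assembly factor, went from 17.8 to 29.7 CPM to 36.2 to 58.1 CPM (0.90 ± 0.20, edgeR adjusted p = 0.005). Cdk1, the kinase of mitotic entry, measured 26.5 to 39.9 CPM and 36 to 78.4 CPM (0.82 ± 0.24, adjusted p = 0.0177, or 0.0707 without WT 1).

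Mki67, the gene of the proliferation antigen Ki-67, was the lower one. It stood at 254, 368 and 346 CPM in wild type and at 224, 166, 220, 223 and 222 CPM in adenoma, falling by 0.61 ± 0.15 (edgeR adjusted p = 0.00861). Set against it within each library, Pcna was 0.115 to 0.152 in wild type and 0.267 to 0.312 in adenoma, and Rfc3 0.0478 to 0.0548 and 0.138 to 0.155. For Mcm7 the ratio to Mki67 was 0.169 to 0.180 and 0.336 to 0.429. These 3 replication genes and Mki67 thus gave opposite directions in the same libraries, a comparison also made after their values were seen.

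Levels can be compared between genes per length. On the scale of CPM per kilobase of all annotated exon bases (GENCODE M21), the wild-type means of the MCM genes were 19.0 ± 1.52 for Mcm6, 16.5 ± 3.32 for Mcm5, 14.4 ± 2.91 for Mcm4, 12.6 ± 2.08 for Mcm7, 12.4 ± 2.93 for Mcm3 and 8.03 ± 1.41 for Mcm2 (SD, n = 3). From Mcm6 down through Mcm5 and Mcm4 to Mcm7 this order held in each of the 3 wild-type libraries. Mcm3 was above Mcm7 in WT 2 (15 and 14.3) and below it in WT 1 and WT 3, and Mcm2 was lowest in each. The place of Mcm2 and the order of Mcm4 and Mcm7 rest on the length used. By the main transcript alone Mcm2 has 16.6 ± 2.92 CPM per kilobase (SD, n = 3), above Mcm4 and Mcm3 at 14.4 ± 2.91 and 15.4 ± 3.62 (SD, n = 3). Mcm7 then has 18.9 ± 3.11 (SD, n = 3), also above Mcm4. Mcm6 is highest by both lengths.

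On the exon scale the GINS genes differed far more, from 1.64 ± 0.347 for Gins2 and 2.01 ± 0.474 for Gins3 to 4.35 ± 0.420 for Gins1 and 10.8 ± 1.28 for Gins4 in wild type (SD, n = 3). In adenoma they were 2.77 ± 0.560, 1.75 ± 0.456, 6.13 ± 0.379 and 16.1 ± 1.12 (SD, n = 5). Gins3 was above Gins2 in each wild-type library (1.52 against 1.28, 2.47 against 1.97 and 2.03 against 1.68). The value of Gins2 carries the overlap with Gse1. Of all members, Mcm6 in adenoma was second only to Pcna, at 25.4 ± 5.17 and 25.7 ± 3.67 CPM per kilobase (SD, n = 5). Mcm6 was above Pcna in adenomas 1, 4 and 5 and below it in adenomas 2 and 3. The Pcna level leaves out reads assigned to Pcna-ps2, which held 104% as many counts, so its distance from Mcm6 is uncertain. The lowest member in adenoma by this length was Gins3.

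Some members not yet mentioned in this respect also share exon bases with a gene on the opposite strand, so part of their counts is uncertain. The shares were 17.4% for Ccne2 with Ints8, 12.7% for Rfc4 with Eif4a2, 10.8% for Orc1 with Gm12743 and 10.7% for Rfc5 with Wsb2. They were under 10% for Orc6, Mcm7, Cdc45, Pole, Lig1, Tk1 and Slbp. Near-identical copies elsewhere in the genome were found for Cdc6, Gmnn, Mcm4, Mcm7, Rrm2, Slbp and Tyms. Of these, the largest count measured was that of Gm9430, at 4.63% of Cdc6. Gm5487, 97.7% identical to Mcm7 over 2157 bases, was not among the genes counted. Nor were the copies of Gmnn and Rrm2 and most of those of Tyms.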

How the data were processed

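The values start from a table of raw counts per gene that the authors deposited, with 8 columns of values, all matched to a library by name. The submitters' processing notes name HTSeq, TopHat2 and FastQC and the build GRCm38. Versions, annotation release and strand setting were not given in the sources used here. Per the labels' protocols, libraries were made with the TruSeq RNA sample prep kit v2, which does not keep strand, and read as short paired ends. Counts of genes that overlap on opposite strands or have near-identical copies are therefore uncertain.

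Symbols were matched through GENCODE M21, and 1486 identifiers without a symbol took 0.304% to 0.407% of counts. Each pair of libraries within a tissue differed by more than sampling noise (chi-square per degree of freedom 20.1 to 149). Counts were tested with edgeR 4.0.16 in R 4.3.3: filterByExpr by group, TMM, robust quasi-likelihood fits, and p-values adjusted by Benjamini-Hochberg over all 18345 genes at 0.05. The common biological coefficient of variation was 0.28. The SE is that of the log2 fold change, and log2 CPM used a prior count of 2. Near-identical copies were transcripts matching over at least 300 bases at 90% identity or more. The fit was tested on simulated data of 18345 genes with 200 changed: 1% of those changed 1.5-fold and 40% of those changed 2-fold were recovered, with 42 calls, so adjustment was stricter there than in the real fit.

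The members and all gene lists were chosen with earlier results of these data known. Every member could be named. Of the wider replication list, up to 4 genes each way with the smallest adjusted p were named, and of the G2/M list Mki67 and the 2 with the smallest adjusted p. Of each marker list at most the first 2 genes were named. Hoxb13 and Gata4 were chosen after their values were seen. In all, 21 alternatives were run, among them RLE, upper-quartile, total-count and pan-epithelial scaling, other filters, DESeq2 1.42.0, voom of limma 3.58.1, a replicate block, a sex term and leaving out libraries. Promoters are from RefSeq.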

Additional observations from a re-analysis of the deposited data

Results flagged for a closer look

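Within the 5 adenomas, the gap of the highest or lowest library to its nearest neighbour was compared with the range for each of the 42 members, and 5 passed the 95% limit of Dixon's test (0.71 for 5 libraries). Chance flags about 1 in 20 groups that are independent. The 42 members share the same 5 libraries and moved together, so that rate is no yardstick for the 5. No share over all genes was taken. In 4 of the 5 genes the library was adenoma 2 and its value was low. Orc6 was at 16.7 CPM there and 23.3 to 25.3 CPM in the other adenomas. Gmnn was at 9.77 CPM against 17.9 to 19.7 CPM, the largest relative gap. Mcm10 was at 22.4 CPM against 33.4 to 37.6 CPM, and Chaf1a at 15.9 CPM against 23.6 to 26.4 CPM. The fifth gene was E2f1, where adenoma 4 was high at 7.74 CPM against 5.72 to 6.29 CPM. Adenoma 2 is the library almost without enterocyte markers, and whether the 2 facts are linked was not tested.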

How the results depend on the processing

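With RLE scaling, DESeq2, voom or the ribosomal RNA genes left out, 12 members were higher (28.6%) and 1 lower, as in the result reported. Of all genes, 28.3% were higher and 29% lower with RLE, and 29.6% and 29.8% with DESeq2. The shares were 28.7% and 28.4% with voom, and 30.6% and 27.6% without the ribosomal RNA genes. Upper-quartile scaling gave 12 and 3 (26.5% of all genes higher and 30.5% lower) and total counts 17 and 0 (33.1% and 24%). No filter gave 15 and 0 (20.1% and 18.5%), and the 5 CPM filter 10 and 3 (31% and 28.4%). Pan-epithelial scaling gave 0 higher and 7 lower with a median of -0.14, and 24% of all calls were then higher, against 52.2%. Of all genes tested, 9.1% were then higher and 28.9% lower. The sex term gave 3 and 0 (16.8% of all genes higher and 12.5% lower). Without WT 1 and adenoma 5, members were 5 and 0 (22.3% and 20.4% of all genes). Without adenoma 2 as well, they were 19 and 3 (32.7% and 31.4%). Leaving out 1 library gave 7 to 20 higher, the ends being without WT 1 and without adenoma 2, and 0 to 2 lower. Of all genes, 24.3% to 34% were then higher and 22.1% to 33.5% lower. Where 3 members were lower, they were Mcm10, Pola2 and Tk1. Pan-epithelial scaling added Ccne2, Pola1, Rfc5 and Slbp to these. The cause of these shifts in the counts was not tested.

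The replicate numbers showed no clear pairing of the libraries: deviations of same-numbered libraries correlated at -0.02, 0.05 and 0.06, and WT 1 correlated best with adenoma 5 (0.14). Such correlations of few libraries cannot exclude a weak pairing. With a replicate block, in which adenomas 4 and 5 share a number with no wild-type library and so do not inform the difference, 2 members were higher (Gins4 and Rfc3) and 0 lower, G2/M genes were 0 and 0, other replication genes 5 higher and 6 lower, and all genes called 6549. Of all genes tested, 18.2% were higher and 17.5% lower under the block.

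All genes called numbered 10657, and 6967 under pan-epithelial scaling or 5372 with the sex term. The shares of all genes called each way in the settings below are those given above. G2/M genes called higher, 5 in the result reported, were 0 under pan-epithelial scaling, 0 with the sex term, 1 without WT 1 and adenoma 5, 10 without adenoma 2 as well, and 2 to 11 with 1 library left out. The single lower one became 0 with the sex term and 2 without WT 1, adenoma 5 and adenoma 2. Other replication genes called higher, 16 in all, were 1 under pan-epithelial scaling, 6 with the sex term and 10 without WT 1 and adenoma 5, and the 15 lower became 3 with the sex term.

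No member that was called changed direction under any alternative run. Estimates of members not called crossed 0 as follows. Under pan-epithelial scaling they were Ccne1 -0.28, Cdc45 -0.34, Cdc6 -0.12, Cdt1 -0.06, Chaf1a -0.38, E2f1 -0.18, Fen1 -0.08, Lig1 -0.25, Mcm5 -0.13, Pold1 -0.28, Pole -0.10, Prim1 -0.33, Rfc4 -0.28, Rpa2 -0.19, Rrm2 -0.28 and Tyms -0.15. Upper-quartile scaling gave Cdc45 -0.03, Chaf1a -0.06 and Prim1 -0.02, and RLE and DESeq2 gave Chaf1a -0.01. The 5 CPM filter gave Cdc45 -0.05, Chaf1a -0.08, Pold1 -0.02, Prim1 -0.04 and Rfc4 -0.01. Total counts gave Gmnn 0.04 and Orc1 0.07, no filter 0.03 and 0.04. The replicate block gave Cdc45 -0.05, Chaf1a -0.09, Orc1 0.02, Prim1 -0.06 and Rrm2 -0.01, and the sex term Gmnn 0.16 and Prim1 -0.02.

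Without WT 1 and adenoma 5, Ccne1 was -0.06, Cdc45 -0.19, Chaf1a -0.15, Lig1 -0.03 and Rrm2 -0.17, and without adenoma 2 as well Cdc45 -0.07, Chaf1a -0.02 and Gmnn 0.10. With 1 library left out, the ranges were -0.06 to 0.25 for Ccne1, -0.14 to 0.27 for Cdc45, -0.12 to 0.13 for Chaf1a, -0.09 to 0.10 for Gmnn, -0.02 to 0.31 for Lig1, -0.20 to 0.15 for Orc1, -0.02 to 0.16 for Prim1 and -0.11 to 0.39 for Rrm2. Only 3 wild-type libraries were at hand, and the spread of members of 1 tissue, larger than many of the differences, limits what could be called.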

Other observations

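The wider replication list was also counted by role, beside 30.3% of all genes called higher and 27.8% lower, and no difference between roles was tested. Of 14 regulators of the G1/S step outside the members, 3 were higher and 5 lower, with a median of -0.33 on the log2 scale. Of 7 origin firing genes 1 was higher and 2 lower, with a median of -0.34. The 6 further polymerase subunits all had estimates above 0, with 2 called higher and a median of 0.32. Of 7 genes of clamp loaders and single-strand binding, 3 were higher and 1 lower, with a median of 0.39. In the promoters of this list, E2F words were found in 17 of 53 windows (32.1%), a share close to that of the 42 members.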
